A study of Lactuca sativa with 36 samples.

Results

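In Italian lettuce, a leafy vegetable (Lactuca sativa L. var. ramose), the leaf-only genes were chosen by their measured FPKM: they are the 150 genes with the highest mean level in leaves among all genes that stayed below 1 FPKM in every root library. FPKM counts fragments relative to transcript length in kilobases and to the mapped fragments of the library, and the level of a gene was the sum over its isoforms. Of 19584 genes listed, 1886 stayed below the root limit, and the 150 are the upper end of these by leaf level. Since these values chose them, their contrast between leaf and root is given as a description, with no test. RNA-seq had been run on 36 libraries of seedlings under 50 µmol/L CdCl2, a salt of the toxic metal cadmium (Cd), with or without earlier feeding of 1 µmol/L melatonin, an indoleamine that plants also make themselves. Leaves (L) and roots (R) were taken after 0, 1 and 5 days, with 3 libraries in each of the 12 groups. The leaf groups without melatonin were LCd0, LCd1 and LCd5, those with melatonin LCdM0, LCdM1 and LCdM5, and the root groups carry the same names with R. Both series received CdCl2, and no leaves kept free of CdCl2 until day 1 or day 5 were analysed here, so that exposure cannot be told apart from seedling age or day of harvest.

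Leaf cells carry chloroplasts, whose thylakoid membranes hold the photosystems, the light-harvesting antennae and the oxygen-evolving complex that splits water, while the plastids of roots are not green. Chlorophyll is a tetrapyrrole, a ring compound made in plastids, and photorespiration salvages the by-product that forms when the carbon-fixing enzyme takes oxygen in place of carbon dioxide. Cadmium is known to lower chlorophyll and photosynthesis in many plants, and melatonin is studied as a protectant against it. Whole leaves were sampled, so that fewer cells of a type and less RNA per cell cannot be told apart.

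The members spanned a wide range of leaf levels. Their means over the 18 leaf libraries ran from 374 FPKM for Lsat_1_v5_gn_7_6501, a gene with an ion binding term, down to 15.3 FPKM, with a median of 37.7 FPKM. A mean of 100 FPKM or more was reached by 20 members, 50 FPKM or more by 57 and 20 FPKM or more by 128, and the 10 highest together held 25.4% of the summed level of all members. In roots their traces were faint, with a median highest root value of 0.472 FPKM. The root value was 0 in all 18 root libraries for 12 members, above 0 in all 18 for 8 members, and at or above 0.5 FPKM in at least 1 library for 68. The name leaf-only therefore holds within the limit of 1 FPKM, since 138 members were above 0 in some root library. For those 138, the leaf mean was 20.2 to 890 times the highest root value, with a median of 94.7. The widest gap belonged to Lsat_1_v5_gn_1_69221, a gene with a protein folding term, with a leaf mean of 52.6 FPKM and at most 0.0591 FPKM in roots.

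**Figure D1:**
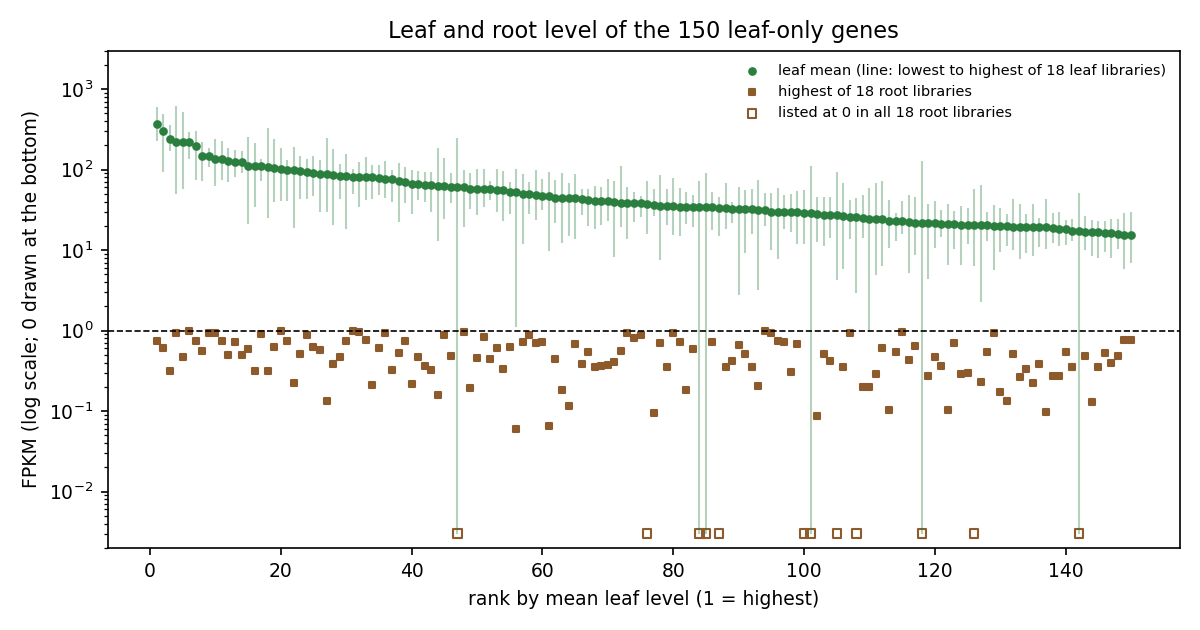
Mean FPKM over the 18 leaf libraries (green points, lines from the lowest to the highest library) and the highest of the 18 root values (brown squares) of each of the 150 leaf-only genes, ordered by leaf mean, on a log axis with 0 drawn at the bottom. Leaf means run from 374 to 15.3 FPKM, all root values lie under the dashed limit of 1 FPKM, 12 members have no root value above 0, and 6 leaf lines reach 0.

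The most abundant leaf transcripts of all were not members. For the 50 highest, the leaf mean was 1.21 to 1183 times the root mean, with a median of 236. This measure uses the root mean and not the highest root value given above for the members. Set against the root mean, the median for the members with any root signal was 421. None of the 306 genes with a leaf mean above 1000 FPKM met the root limit, and the lowest of their root maxima was 2.61 FPKM. Of 9075 genes with a leaf mean at least as high as that of the last member, the root limit left out 8925 (98.3%). The 3 highest of these were Lsat_1_v5_gn_4_153980, with a term for carbon fixation in photosynthetic organisms, Novelgene0968, described as a ferredoxin (an electron carrier of photosynthesis), and Lsat_1_v5_gn_7_116120, with a term for the oxygen-evolving complex. Their leaf means were 35072, 27714 and 22644 FPKM and their root means 70.9, 88.7 and 98.9 FPKM, so that the root level was 0.202%, 0.320% and 0.437% of that in leaves. A limit set in FPKM, and not as a share of the leaf level, thus kept the set to moderately expressed genes. None of the 20 genes annotated as chlorophyll-binding or light-harvesting was a member. Their summed level was 55749 to 130480 FPKM in the leaf libraries and 135 to 875 FPKM in the root libraries, with 19 of the 20 higher in leaves.

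Around the limits the members differed little from their neighbours. The last 3 members, Lsat_1_v5_gn_7_21860, Lsat_1_v5_gn_9_62000 and Lsat_1_v5_gn_1_48980, had leaf means of 15.7, 15.6 and 15.3 FPKM, and the next 3 genes, Lsat_1_v5_gn_4_124421, Novelgene1772 and Lsat_1_v5_gn_9_11040, had 15.2, 14.7 and 14.7 FPKM. Just under the root limit stood Lsat_1_v5_gn_2_71401, Lsat_1_v5_gn_8_42261 and Lsat_1_v5_gn_1_27760, with root maxima of 0.983, 0.989 and 0.991 FPKM. Just over it stood Lsat_1_v5_gn_5_117861, Lsat_1_v5_gn_1_35440 and Lsat_1_v5_gn_6_68641, at 1.00, 1.00 and 1.01 FPKM. With a limit of 0.5 FPKM the set shared 82 genes with the one used, and with 2 FPKM it shared 70. Ranking by the median leaf value kept 147.

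Some features on which the rule put no limit set the members apart in number, here without a test. A single isoform was listed for 93 of them (62%), against 35.3% of the 16800 genes measured in leaves. Isoforms were summed before the root limit was applied, so the rule may itself have favoured genes with a single isoform, which was not tested. For the 57 members with several isoforms, the main isoform held a median of 82.0% of the gene's leaf level, against 74.9% for leaf genes with several. New genes of the long-read transcriptome, which carry no reference identifier, made up 21 members (14%), against 11.9% of leaf genes. A functional term was held for 21 members (14%), close to the 15.9% of leaf genes. Members varied more between leaf libraries, with a median coefficient of variation of 35.7% over the 18 libraries. It was 31.2% for all 16800 leaf genes and 26.5% for leaf genes of at least the level of the last member. Within a group it was 24.6% for members against 19.4% for the latter genes. Those genes have no upper limit of level, so they are not matched to the members in level.

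By group mean, the summed level of the 150 members was highest on day 0 and lowest on day 5 in both series. It was 9996, 9373 and 10160 FPKM in the LCd0 libraries, 8253, 9240 and 8047 FPKM in LCd1, and 6872, 6618 and 9115 FPKM in LCd5. All LCd5 sums lay below all LCd0 sums, but replicate 3 of LCd5 stood well above the other 2 and within the range of LCd1. With melatonin the sum was 10673, 10401 and 9992 FPKM in LCdM0, 8580, 10031 and 9153 FPKM in LCdM1, and 7026, 6167 and 6687 FPKM in LCdM5. Here every LCdM5 library lay below every LCdM0 and LCdM1 library. The FPKM of all genes together also fell over time, and as a percentage of that total the members were at 0.389 to 0.406% in LCd0 and 0.363 to 0.450% in LCd5, and at 0.410 to 0.447% in LCdM0 and 0.341 to 0.406% in LCdM5. On this relative scale days 0 and 5 overlapped without melatonin and did not with it, while LCdM1, at 0.389 to 0.434%, overlapped both LCdM0 and LCdM5. Genes of high leaf level fell as well. For the 50 most abundant, the median share of the leaf mean was 124 to 133% in LCd0 and 75.2 to 94.6% in LCd5. With melatonin it was 124 to 130% in LCdM0 and 59.4 to 68.4% in LCdM5. The members' sum stood at 108 to 117% of its leaf mean in LCd0 and 76.2 to 105% in LCd5. In LCdM0 and LCdM5 the sum stood at 115 to 123% and 71.0 to 80.9%. A fall by day 5 was thus not particular to the leaf-only genes.

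**Figure D2:**
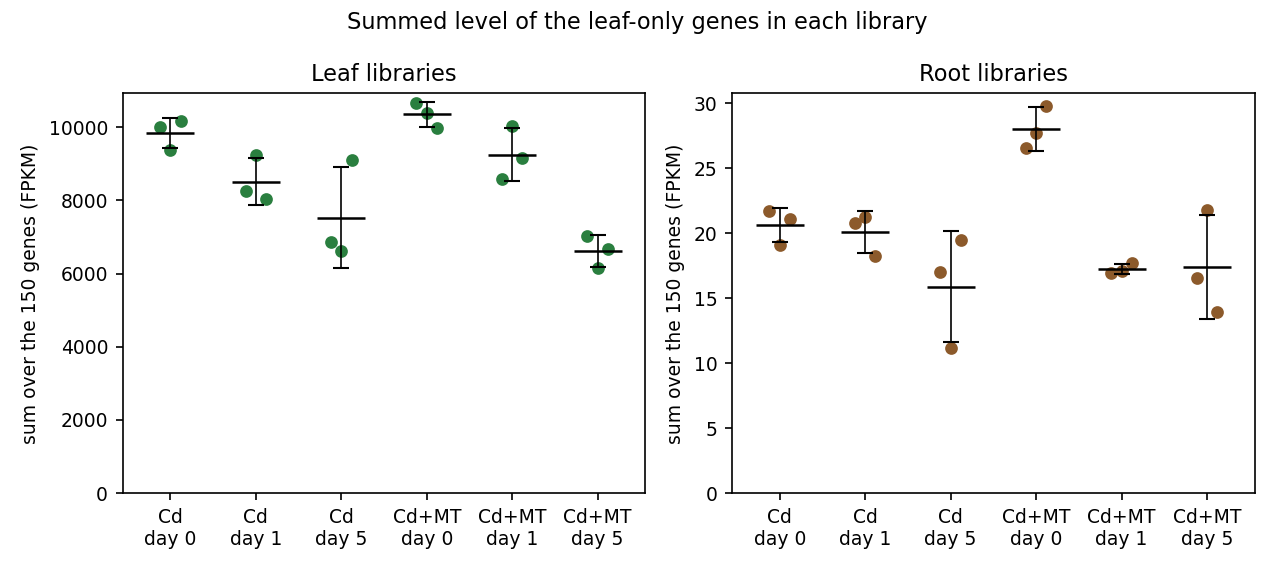
Summed FPKM of the 150 leaf-only genes in each library (points), with group mean (bar) and SD (whiskers, n = 3), for leaves (left) and roots (right); Cd+MT marks the groups with melatonin. Leaf sums end at 6167 to 9115 FPKM on day 5, while root sums stay between 11.2 and 29.8 FPKM with all RCdM0 libraries on top.

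In roots the members summed to 11.2 to 29.8 FPKM, or 0.128 to 0.343% of the mean leaf sum. The RCdM0 libraries, at 26.5 to 29.8 FPKM, were above every other root library, the next of which was at 21.8 FPKM. The 50 genes most abundant in leaves stood in RCdM0 at a median of 0.678 to 1.16% of their leaf level and in the other root libraries at 0.165 to 0.921%. Whether the traces are root transcripts or reads of leaf origin was not tested.

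From day 0 to day 5 under Cd alone, leaf-only genes went down far more often than up. In the limma test (log2(FPKM + 1), Benjamini-Hochberg adjustment over all 16800 leaf genes, called at an adjusted p under 0.05), 49 members were lower and 3 higher on day 5, and 98 were not called. Of all genes, 11.1% were called lower and 5.48% higher, and of the 9073 tested genes with at least the leaf level of the last member, 17.3% and 5.85%. The members' median log2 change was -0.45 against -0.07 for all genes. In 54 members every LCd5 library was below every LCd0 library, and in 15 every one was above, against 20.5% and 13.7% of all genes. The 52 calls in both directions together rested in part on single libraries, being 31 without LCd0 replicate 1, 30 without LCd5 replicate 1, 29 without LCd5 replicate 2, and 61 without LCd5 replicate 3, the library with the high sum.

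With melatonin the same interval gave more calls. From LCdM0 to LCdM5, 64 members were lower and 2 higher, where 14.8% of all genes were called lower and 8.11% higher, and 21.4% and 8.2% of the genes of like level or above. The median log2 change of the members was -0.67, against -0.06 for all genes, and in 82 members the LCdM5 libraries lay wholly below those of LCdM0, against 23.2% of all genes. In all, 44 members were lower in both series, none was higher in both or called in opposite directions, and 76 were called in neither. Of all 16800 genes, 8.13% were lower in both series and 3.11% higher in both. Among the 44, the log2 change had a median of -1.16 under Cd (from -3.90 to -0.60) and of -1.32 with melatonin (from -2.97 to -0.67). The 44 included 5 of the 10 members of highest leaf level and 10 of the 21 with a term. Terms were held only for genes in the study's tables of genes that differed between these same samples. The count with a term is therefore not independent evidence that annotated members fell more often.

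Both counts depended on how libraries were scaled and on a quality measure, whose parts in the result were not tested further. When each library was scaled to the same summed FPKM, the median of all genes moved up by 0.34 (Cd) and 0.38 (with melatonin) on the log2 scale. The calls from day 0 to day 5 then became 25 lower and 19 higher for Cd, and 38 lower and 9 higher with melatonin, and 19 of the 44 were still lower in both. On that scale 4.30% of all genes were called lower and 19.8% higher for Cd, and 6.65% and 26.4% with melatonin, against 16.7% and 12.7% and then 25.3% and 6% of the members. Relative to the median of all genes, the members' median was -0.38 as deposited and -0.33 after that scaling for Cd, and -0.61 and -0.57 with melatonin. One factor per library moves all genes nearly alike, so this difference could hardly change with the scaling. The share of high-quality bases was lower in every LCd5 than in every LCd0 library, and lower in every LCdM5 than in every LCdM0 library. With this share as a covariate no member was called over either interval (19 and 30 had an unadjusted p under 0.05), and the members called before kept their sign in 49 of 52 and 66 of 66, with a median size of 0.84 (median SE 0.48) in place of 1.14 (0.26) and of 0.87 (0.43) in place of 1.23 (0.25). Quality and day cannot be told apart in these intervals.

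**Figure D3:**
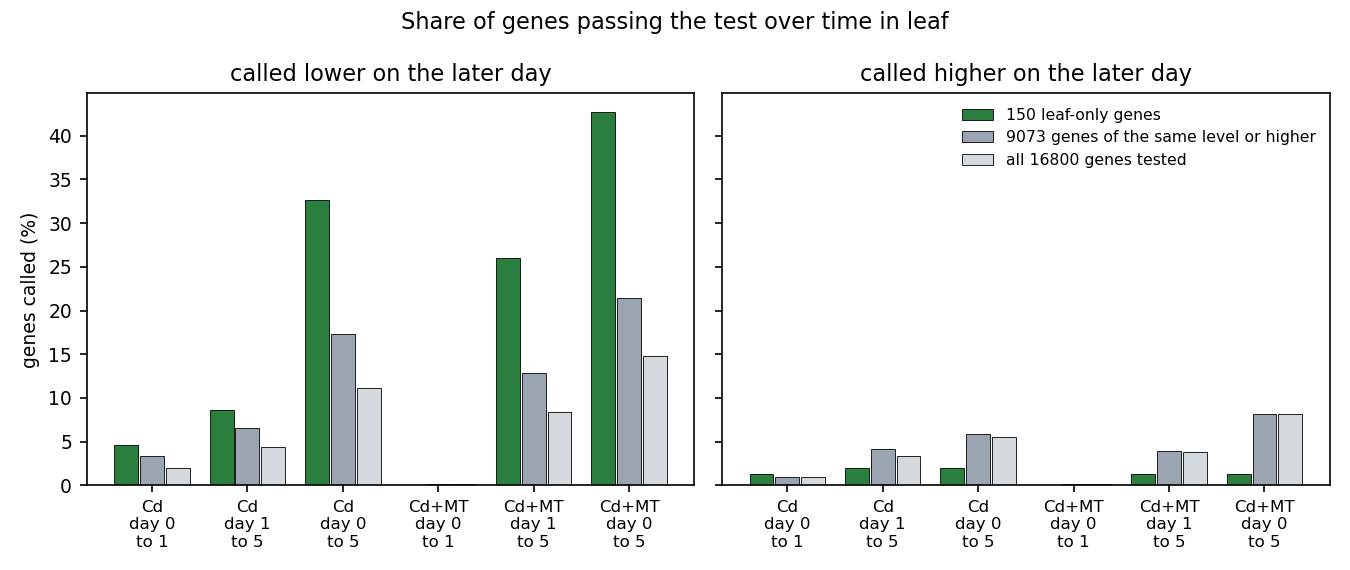
Percentage of genes called lower (left) or higher (right) on the later day by the limma test at an adjusted p under 0.05, for the 150 leaf-only genes (green), the 9073 genes of at least their leaf level (dark grey) and all 16800 genes tested (light grey), on FPKM as deposited. For day 0 to day 5 the green bars reach 32.7% under Cd and 42.7% with melatonin on the left, and stay at 2% and 1.33% on the right.

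From day 1 to day 5 with melatonin, base quality overlapped between the groups, as it did from day 0 to day 1 under Cd. Here 39 members were lower and 2 higher on day 5 by the limma test, where 8.39% of all genes were called lower and 3.83% higher. The members' median log2 change was -0.52, against -0.04 for all genes, and with the quality measure as a covariate 36 were lower and 2 higher, 38 of the 41 first called being called again. The call count fell to 14 without LCdM1 replicate 2, to 23 without LCdM1 replicate 3 and to 25 without LCdM5 replicate 2, and to 2 when the 2 groups were fitted alone. On the scale of equal summed FPKM, 20 were lower and 3 higher, where 3.16% of all genes were lower and 14.5% higher. Under Cd alone the same interval gave 13 members lower and 3 higher, against 4.42% and 3.39% of all genes. Base quality was lower in every LCd5 than in every LCd1 library, and with it as a covariate none of these 16 was called, with the median size 1.14 (median SE 0.61) in place of 1.31 (0.31) and the same sign in all 16. The number of calls was 6 in all without LCd1 replicate 2, 9 without LCd5 replicate 1, 6 without LCd5 replicate 2 and 29 without LCd5 replicate 3. The members called lower in both series from day 1 to day 5 numbered 11 of 150, against 2.57% of all genes.

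The first day brought few calls. Under Cd, 7 members were lower and 2 higher on day 1 than on day 0, or 4.67% and 1.33%, against 2.04% and 0.911% of all genes. On the scale of equal summed FPKM the balance turned to 2 lower and 5 higher, where 0.75% of all genes were lower and 3.95% higher. Leaving out any single library of LCd0 or LCd1 left 1 to 5 of the 9 in number (1 without LCd0 replicate 1 or LCd1 replicate 3, 2 without LCd1 replicate 1, 3 without LCd0 replicate 2 or 3, 5 without LCd1 replicate 2). With melatonin, limma called no member from day 0 to day 1, while 26 (17.3%) had an unadjusted p under 0.05, against 11.3% of all genes. Of all genes, 0.137% were called higher and 0.119% lower. Base quality was lower in every LCdM1 than in every LCdM0 library, so quality and day cannot be told apart in this interval.

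The photosynthesis list contained 2 members. Lsat_1_v5_gn_4_110701, with terms for photosystem II and its oxygen-evolving complex, was at 187, 157 and 169 FPKM in LCd0, at 135, 141 and 154 FPKM in LCd1 and at 82.0, 96.1 and 139 FPKM in LCd5. It was at 200, 219 and 193 FPKM in LCdM0, at 126, 211 and 171 FPKM in LCdM1 and at 104, 71.8 and 92.1 FPKM in LCdM5. All day 5 libraries lay below all day 0 libraries of their series, and LCdM0 was above LCd0 throughout. The log2 change from day 0 to day 5 was -0.72 (SE 0.21, limma adjusted p = 0.0279) under Cd and -1.20 (SE 0.21, adjusted p = 0.00107) with melatonin. On the scale of equal summed FPKM the first was -0.32 (limma adjusted p = 0.230) and the second -0.76 (adjusted p = 0.00714).

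The second, Lsat_1_v5_gn_1_38720, with photosynthesis and thylakoid terms, did not pass over either interval ending on day 5. It was at 70.4, 77.0 and 97.1 FPKM in LCd0, at 41.7, 61.5 and 49.9 FPKM in LCd1 and at 64.9, 62.7 and 96.8 FPKM in LCd5, with LCd1 below the other 2 groups. With melatonin it was at 65.6, 66.9 and 74.7, at 63.9, 66.1 and 61.5, and at 53.5, 49.4 and 53.2 FPKM on days 0, 1 and 5. Of the 68 tested genes of this list, 34 were lower and 2 higher from LCd0 to LCd5, and 39 lower and 6 higher from LCdM0 to LCdM5, with median log2 changes of -0.60 and -0.86. The terms come from the study's tables of genes that differed between these same samples. These list counts, and those of the lists that follow, are therefore not independent evidence of a direction. Of all genes, 11.1% were lower and 5.48% higher from LCd0 to LCd5, and 14.8% and 8.11% from LCdM0 to LCdM5.

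Chlorophyll and photorespiration were each represented by 1 member. Lsat_1_v5_gn_7_6361, with tetrapyrrole and pigment metabolism terms, was at 132, 96.0 and 107 FPKM in LCdM1 and at 78.1, 40.8 and 53.8 FPKM in LCdM5, all below LCdM1, a log2 change of -0.98 (SE 0.24, limma adjusted p = 0.0194) that was -0.64 (adjusted p = 0.0924) on the scale of equal summed FPKM. From LCdM0, at 114, 74.8 and 124 FPKM with overlap, the change to LCdM5 was -0.86 (limma adjusted p = 0.0197), or -0.43 (adjusted p = 0.213) on that scale. Under Cd it was at 79.5, 115 and 111 FPKM in LCd0 and at 92.7, 86.8 and 119 FPKM in LCd5, overlapping groups with a log2 change of -0.03 (SE 0.24, adjusted p = 0.955). Of 65 tested genes with such terms, 26 were lower and 4 higher from LCd0 to LCd5, and 34 lower and 4 higher from LCdM0 to LCdM5.

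Lsat_1_v5_gn_3_46860 carried terms for glyoxylate and dicarboxylate metabolism, the pathway map that holds photorespiration, and for an oxidoreductase acting on alcohol groups. It was at 165, 151 and 194 FPKM in LCd0, at 93.5, 109 and 120 FPKM in LCd1 and at 84.1, 75.0 and 110 FPKM in LCd5. In the series with melatonin the gene was at 203, 184 and 228, at 134, 131 and 163, and at 107, 84.0 and 99.9 FPKM on days 0, 1 and 5. Day 5 was below day 0 in every library of both series, by -0.92 (SE 0.16, limma adjusted p = 0.00242) and -1.07 (SE 0.16, adjusted p = 0.000517) on the log2 scale. This call held on the scale of equal summed FPKM, at -0.52 (limma adjusted p = 0.0226) and -0.63 (adjusted p = 0.00657). Of 64 tested genes of carbon fixation and photorespiration, 21 were lower and 1 higher from LCd0 to LCd5, and 29 lower and 4 higher from LCdM0 to LCdM5.

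Among the other annotated members, Lsat_1_v5_gn_5_108701, with metal ion and sodium ion transport terms, went down with both treatments. It was at 131, 122 and 122 FPKM in LCd0, at 77.5, 91.3 and 75.8 FPKM in LCd1 and at 70.4, 67.6 and 81.1 FPKM in LCd5. With melatonin it was at 129, 113 and 137 FPKM in LCdM0, at 107, 119 and 76.3 FPKM in LCdM1 and at 69.6, 45.4 and 42.6 FPKM in LCdM5. The log2 change from day 0 to day 5 was -0.78 (SE 0.19, limma adjusted p = 0.0120) under Cd and -1.28 (SE 0.19, adjusted p = 0.000400) with melatonin. After scaling to equal summed FPKM it was -0.37 (limma adjusted p = 0.195) and -0.84 (adjusted p = 0.00668). Of 200 tested genes with a transport term, 39 were lower and 8 higher from LCd0 to LCd5, and 49 lower and 17 higher from LCdM0 to LCdM5.

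Lsat_1_v5_gn_7_51761, with a term for binding of flavin adenine dinucleotide (FAD), a redox cofactor, was at 73.0, 119 and 115 FPKM in LCdM1 and at 44.5, 46.0 and 43.4 FPKM in LCdM5, a log2 change of -1.14 (SE 0.19, limma adjusted p = 0.00363). Lsat_1_v5_gn_3_55461, an isomerase by its term, was at 102, 94.2 and 99.5 FPKM in LCdM0 and at 51.6, 43.0 and 58.9 FPKM in LCdM5, and was lower on day 5 in both series, although not under Cd on the scale of equal summed FPKM (limma adjusted p = 0.253). Lsat_1_v5_gn_8_31081, under an oxidation-reduction term, was at 42.9, 44.3 and 58.8 FPKM in LCd0 and at 14.8, 7.79 and 25.2 FPKM in LCd5, and was lower in both series. Lsat_1_v5_gn_9_102220, an oxidoreductase of diphenols by its terms, spread too widely for any call, from 126 to 327 FPKM in LCdM0 and from 25.4 to 143 FPKM in LCdM1. Of 276 tested redox genes, 70 were lower and 10 higher from LCd0 to LCd5, and 85 lower and 27 higher from LCdM0 to LCdM5.

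The largest fall under Cd was that of Lsat_1_v5_gn_1_69221, the member with the protein folding term. It was at 100, 66.4 and 74.5 FPKM in LCd0, at 30.6, 54.2 and 48.9 FPKM in LCd1 and at 1.09, 6.18 and 9.20 FPKM in LCd5. The series with melatonin had 66.2, 103 and 64.7 FPKM, then at 75.0, 97.8 and 87.1 FPKM, and on day 5 at 27.8, 8.58 and 25.1 FPKM. Without melatonin each day lay below the one before, and with melatonin day 1 overlapped day 0. The log2 change from day 0 to day 5 was -3.90 (SE 0.50, limma adjusted p = 0.000578) under Cd and -2.0 (SE 0.50, adjusted p = 0.0109) with melatonin, and the difference between these changes did not pass the test, with no member passing it.

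Lsat_1_v5_gn_9_15900, for which only a metabolic process term was held, had the largest fall with melatonin. It was at 70.9, 73.5 and 39.9 FPKM in LCdM0 and at 3.17, 9.16 and 9.77 FPKM in LCdM5, a log2 change of -2.97 (SE 0.52, limma adjusted p = 0.00118). Under Cd it was at 61.5, 21.8 and 38.7 FPKM in LCd0 and at 12.5, 3.41 and 5.79 FPKM in LCd5, a log2 change of -2.38 (SE 0.52, limma adjusted p = 0.00709). In both series the day 5 libraries lay below all earlier ones.

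The other large falls belonged to genes without a term. Lsat_1_v5_gn_1_82941 was at 51.5, 47.6 and 50.8 FPKM in LCdM0 and at 13.2, 10.0 and 11 FPKM in LCdM5, a log2 change of -2.04 (SE 0.30) with the limma adjusted p of 0.000400. Lsat_1_v5_gn_9_23900, Lsat_1_v5_gn_5_4581 and Lsat_1_v5_gn_3_17560 also fell with melatonin, by 2.34, 2.10 and 2.08 on the log2 scale. All 3 calls held without any single library. With the quality covariate these changes were -1.87, -1.33 and -1.28, and none was called (limma adjusted p of 0.344 to 0.350). From day 1 to day 5 with melatonin, Lsat_1_v5_gn_5_112041 was at 36.2, 52.4 and 55.3 and then at 9.14, 13.4 and 17.8 FPKM, a log2 change of -1.78 (SE 0.36) that held without any single library. The other large falls over that interval were those of Lsat_1_v5_gn_9_15900 (log2 change -2.24), Lsat_1_v5_gn_1_69221 (-2.18), Lsat_1_v5_gn_3_17560 (-1.72) and Lsat_1_v5_gn_4_15740 (-1.70). Each lost its call without some library, at limma adjusted p of 0.0571 to 0.0716 (LCdM1 replicate 2 or 3 or LCdM5 replicate 1), 0.0512 to 0.0594 (LCdM1 replicate 2 or LCdM5 replicate 2), 0.0544 (LCdM1 replicate 2) and 0.0662 (LCdM5 replicate 1). Under Cd, Lsat_1_v5_gn_4_15740 was at 143, 115 and 155 FPKM in LCd0 and at 21.2, 18.3 and 72.1 FPKM in LCd5, a log2 change of -2.13 (SE 0.41), with replicate 3 of LCd5 between the groups. Novelgene2987 was at 38.8, 45.8 and 60.4 FPKM in LCd0 and at 7.22, 2.77 and 27 FPKM in LCd5, a log2 change of -2.35 (SE 0.57), no longer called without LCd5 replicate 2 (limma adjusted p = 0.0595). Lsat_1_v5_gn_4_145381 fell by 1.92 and was not called without LCd0 replicate 3 (limma adjusted p = 0.0651) or LCd5 replicate 1 (adjusted p = 0.0705).

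From day 1 to day 5 under Cd the largest falls after those of Lsat_1_v5_gn_1_69221 and Lsat_1_v5_gn_9_15900 were those of Lsat_1_v5_gn_9_13841, Lsat_1_v5_gn_7_37240 and Lsat_1_v5_gn_7_84560. Lsat_1_v5_gn_7_37240 was at 112, 128 and 100 FPKM in LCd1 and at 27.2, 19.0 and 73.2 FPKM in LCd5, a log2 change of -1.71 (SE 0.34). Without LCd1 replicate 2 its limma adjusted p was 0.0513, and with the quality covariate its change was -0.79 (adjusted p = 0.742). With that covariate the changes of Lsat_1_v5_gn_7_84560 and Lsat_1_v5_gn_9_15900 were -0.63 and -1.26 in place of -1.35 and -2.22, and neither was called (limma adjusted p = 0.813 and 0.746). Lsat_1_v5_gn_9_13841 was at 57.5, 34.9 and 60.2 FPKM in LCd1, above LCd0 at 26.4, 24.6 and 19.2 FPKM, and at 7.56, 12.7 and 24.8 FPKM in LCd5. Its call and that of Lsat_1_v5_gn_7_84560 were each lost without 4 of the 6 libraries in turn (LCd5 replicates 1 and 2 and LCd1 replicate 3 for both, LCd1 replicate 1 for the former and replicate 2 for the latter), at limma adjusted p of 0.0503 to 0.0743 and 0.0774 to 0.105. The call of Lsat_1_v5_gn_9_15900 over this interval was lost without LCd1 replicate 2, LCd1 replicate 3 or LCd5 replicate 2, at limma adjusted p of 0.0638 to 0.0990.

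**Figure D4:**
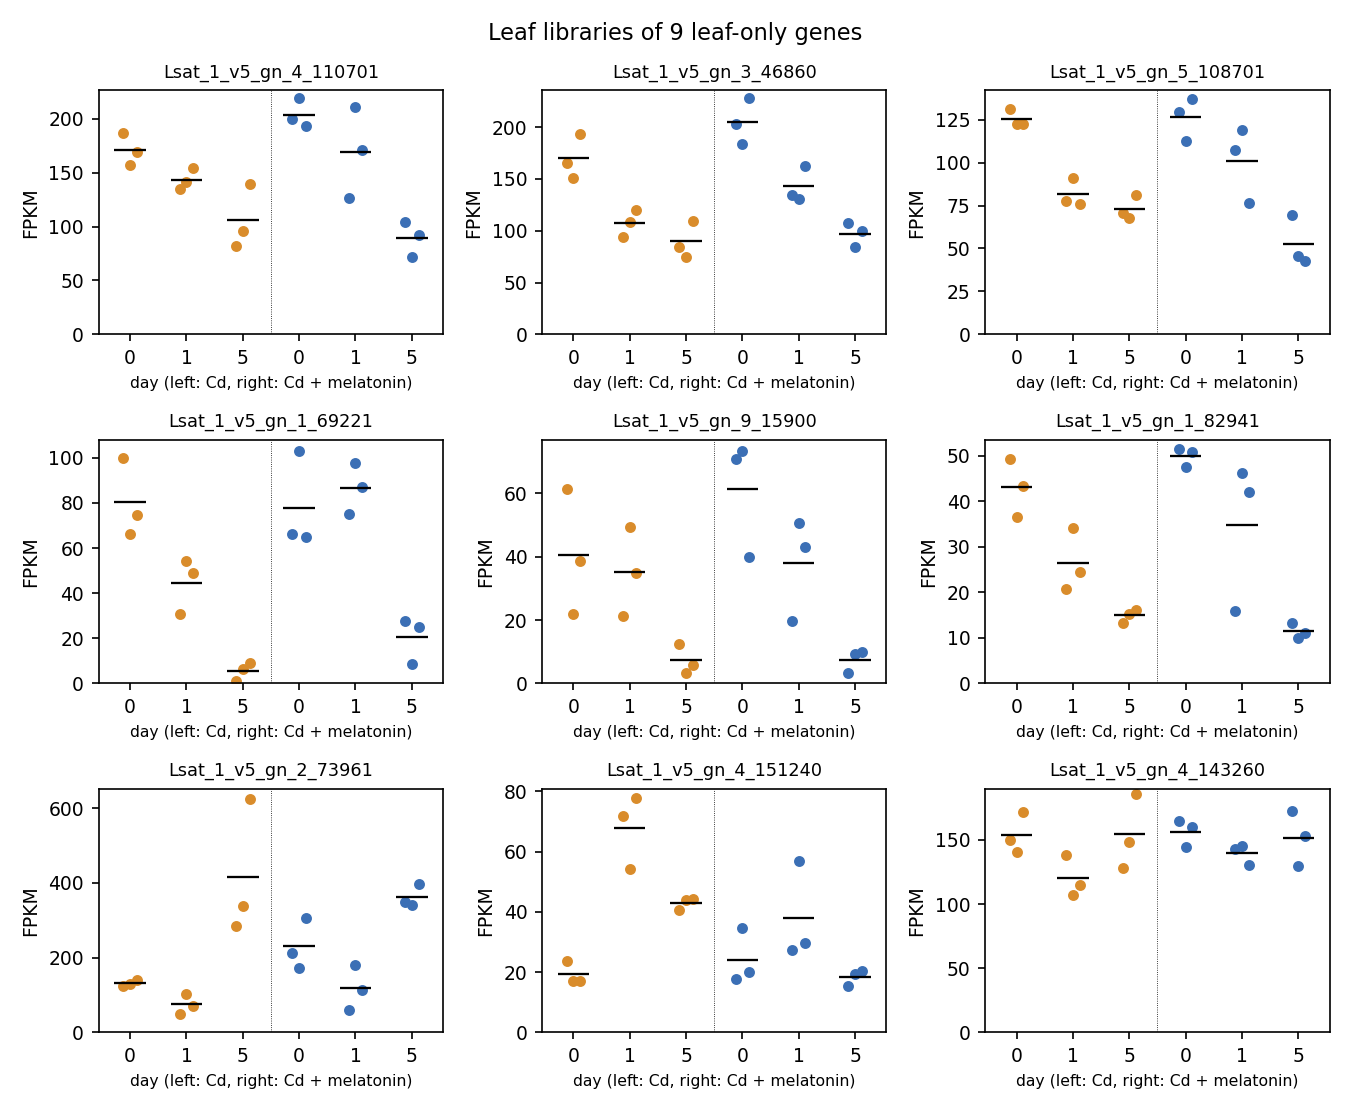
FPKM of 9 leaf-only genes in the leaf libraries (points; orange Cd, blue Cd with melatonin) with group means (bars), by day. The first 6 genes are lowest on day 5 in both series, Lsat_1_v5_gn_2_73961 is highest on day 5, Lsat_1_v5_gn_4_151240 peaks on day 1 under Cd at 54.2 to 77.8 FPKM, and Lsat_1_v5_gn_4_143260 stays between 107 and 186 FPKM.

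Against this trend a few members rose. Lsat_1_v5_gn_2_73961, with a cell proliferation term and 12 isoforms, was at 125, 130 and 139 FPKM in LCd0, at 49.5, 103 and 71.8 FPKM in LCd1 and at 284, 337 and 624 FPKM in LCd5. With melatonin it was at 212, 171 and 307 FPKM, at 60.7, 181 and 114 FPKM, and at 350, 342 and 397 FPKM on days 0, 1 and 5. Day 5 was above both earlier days in every library of either series. From day 1 to day 5 the log2 change was 2.43 (SE 0.37, limma adjusted p = 0.00301) under Cd and 1.74 (SE 0.37, adjusted p = 0.00997) with melatonin. From day 0 to day 5 it was 1.57 (limma adjusted p = 0.0108) and 0.70 (adjusted p = 0.196).

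Lsat_1_v5_gn_7_13180, without a term, was the other member to rise from day 1 to day 5 in both series. It was at 16.1, 6.40 and 11.9 FPKM in LCd1 and at 33.0, 57.1 and 28.4 FPKM in LCd5, a log2 change of 1.72 (SE 0.36, limma adjusted p = 0.0135). With melatonin it was at 22.6, 9.92 and 14.2 FPKM in LCdM1 and at 36.3, 72.2 and 40.5 FPKM in LCdM5, a log2 change of 1.62 (SE 0.36, adjusted p = 0.0122). These calls were lost without LCd1 replicate 2 (limma adjusted p = 0.0712), LCd5 replicate 2 (adjusted p = 0.0603) or LCdM1 replicate 2 (adjusted p = 0.0652). From day 0 to day 5 it rose with melatonin, from 10.7, 15.5 and 10.9 FPKM in LCdM0, by 1.87 on the log2 scale (limma adjusted p = 0.00218). The other rise over that interval was that of Lsat_1_v5_gn_2_132401, from 2.28, 19.4 and 7.64 to 26.1, 50.7 and 46.3 FPKM, a log2 change of 2.28 (SE 0.76) lost without any 1 of the compared libraries but LCdM0 replicate 2 (limma adjusted p of 0.0537 to 0.171).

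Lsat_1_v5_gn_5_166280, with terms for regulation of RNA synthesis and protein phosphorylation, was at 18.9, 21.3 and 16 FPKM in LCd0 and at 28.3, 35.8 and 32.7 FPKM in LCd5. The groups did not overlap and the log2 change was 0.76 (SE 0.24, limma adjusted p = 0.0441), but leaving out any 1 of the 6 libraries ended the call (adjusted p of 0.0554 to 0.143). Of 123 tested genes listed for regulation of transcription, 32 were higher and 6 lower from LCd0 to LCd5, and 37 higher and 7 lower from LCdM0 to LCdM5. The rise of Lsat_1_v5_gn_2_96161 from day 1 to day 5 under Cd, by 1.07 on the log2 scale, was lost in the same way (limma adjusted p of 0.0647 to 0.149).

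On day 1 under Cd, Lsat_1_v5_gn_4_151240 stood out among the members. It was at 23.6, 16.9 and 17.1 FPKM in LCd0, at 71.8, 54.2 and 77.8 FPKM in LCd1 and at 40.5, 44.1 and 44.3 FPKM in LCd5, with no overlap between the 3 groups. The log2 change was 1.77 (SE 0.28, limma adjusted p = 0.00537) to day 1 and 1.14 (SE 0.28, adjusted p = 0.0124) to day 5. Both calls held without any single library. With the quality covariate the gene kept the call to day 1 but not that to day 5 (log2 change 0.88, limma adjusted p = 0.515). With melatonin it was at 17.6, 34.5 and 19.9, at 27.2, 56.8 and 29.6, and at 15.3, 19.3 and 20.3 FPKM on days 0, 1 and 5, overlapping on days 0 and 1 and called only for the fall from day 1 to day 5 (log2 change -0.94, SE 0.28), a call lost on the scale of equal summed FPKM (limma adjusted p = 0.121). The difference between the changes in the 2 series did not pass the test. Lsat_1_v5_gn_0_33241, a hydrolase of carbon-nitrogen bonds by its term, had a day 1 peak as well, at 38.9, 54.6 and 45.2 FPKM in LCd0, 91.4, 82.9 and 81.4 FPKM in LCd1 and 32.2, 39.6 and 48.0 FPKM in LCd5. Its rise of 0.88 (SE 0.21, limma adjusted p = 0.0419) was lost without any 1 of the 6 libraries (adjusted p of 0.0537 to 0.126).

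Of the members lower on day 1 under Cd, Lsat_1_v5_gn_8_11820 moved from 41.9, 31.0 and 45.9 to 17.3, 22.2 and 14.3 FPKM, a log2 change of -1.10 (SE 0.22, limma adjusted p = 0.0181). Lsat_1_v5_gn_8_61000 moved from 42.4, 40.2 and 35.3 to 22.3, 20.8 and 17.8 FPKM, a log2 change of -0.92 (SE 0.19, limma adjusted p = 0.0205). The former call was lost without LCd0 replicate 1 or 3 or LCd1 replicate 1 or 3 (limma adjusted p of 0.0597 to 0.0850), and the latter without LCd0 replicate 1 or 2 or LCd1 replicate 3 (adjusted p of 0.0589 to 0.0881). Lsat_1_v5_gn_9_46720, Lsat_1_v5_gn_8_44241 and Lsat_1_v5_gn_1_31041 fell by 1.01, 0.98 and 0.91 on the log2 scale, calls that any single library left out would end (limma adjusted p of 0.0548 to 0.146). None of the groups of these 5 genes overlapped, which was a condition for naming them.

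Melatonin itself was compared on each day. On day 0 limma called no member, with 0.0238% of all genes called in either direction and 6 members (4%) at an unadjusted p under 0.05, against 5.86% of all genes. On day 1 it called none, with 0% of all genes called and 7 members (4.67%) at an unadjusted p under 0.05, against 4.51% of all genes. On day 5 it called 1 member, lower with melatonin, where 0.0536% of all genes were called lower and 0.0238% higher. An unadjusted p under 0.05 was reached there by 24 members (16%) and by 9.11% of all genes. The member called was Lsat_1_v5_gn_5_50720, without a term, at 69.9, 60.7 and 56.2 FPKM in LCd5 and 38.3, 28.4 and 31.9 FPKM in LCdM5, a log2 change of -0.91 (SE 0.15, limma adjusted p = 0.0391). The groups were apart, but the call was lost without LCd5 replicate 1 or 2 or LCdM5 replicate 2 or 3 (adjusted p of 0.147 to 0.254). Without LCd5 replicate 3, 3 members were called. The medians of the members' log2 differences were 0.07, 0.16 and -0.20 on days 0, 1 and 5, against 0.01, 0.03 and -0.01 for all genes. The difference was above 0 for 107 members on day 1 and for 46 on day 5, where 54.9% and 48.1% of all genes were above 0. Base quality was lower in every LCdM1 than in every LCd1 library. Melatonin and quality cannot be told apart on day 1.

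The changes over time with melatonin were then set against those without it, as a difference of 2 changes. Limma called no member for day 0 to 1, day 1 to 5 or day 0 to 5, with 0.0119%, 0.0119% and 0.0357% of all genes called. An unadjusted p under 0.05 was reached by 2, 15 and 14 members, or 1.33%, 10% and 9.33%, against 3.67%, 6.62% and 6.02% of all genes. The members' median difference was -0.33 from day 1 to day 5 and -0.29 from day 0 to day 5. For all genes it was -0.03 and -0.01. The difference was above 0 for 34 and 45 members, where 46.4% and 49.3% of all genes were above 0. With no member passing, a difference between the series is not shown for any single member, and none was tested for the numbers of calls. The intervals with day 1 also share the lower base quality of LCdM1 against LCd1.

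**Figure D5:**
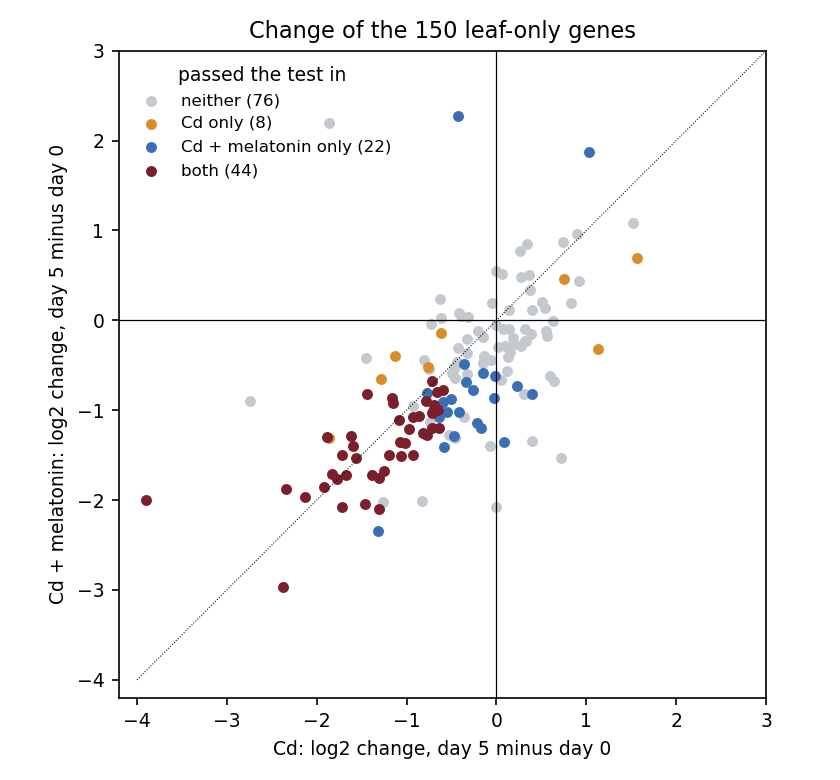
Log2 change from day 0 to day 5 of the 150 leaf-only genes under Cd (x axis) and under Cd with melatonin (y axis), on the log2(FPKM + 1) scale, coloured by the series in which the limma test was passed; the dotted line marks equal change. The 44 members called in both lie at the lower left, 22 were called with melatonin only, 8 under Cd only and 76 in neither.

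The members of highest leaf level did not all follow the main trend. Lsat_1_v5_gn_7_6501, the highest, was at 313, 426 and 371 FPKM in LCd0 and at 467, 549 and 592 FPKM in LCd5, groups apart with a log2 change of 0.54 that was not called (limma adjusted p = 0.187). On the scale of equal summed FPKM this change was 0.94 and was called (limma adjusted p = 0.0300). With melatonin the gene was at 316, 230 and 401 and at 505, 244 and 311 FPKM, with overlap and no call. Lsat_1_v5_gn_6_81741 was at 489, 419 and 349 FPKM in LCd0 and 121, 133 and 249 FPKM in LCd5, and at 478, 453 and 414 FPKM in LCdM0 and 150, 93.2 and 177 FPKM in LCdM5. From day 0 to day 5 it fell by 1.38 under Cd (SE 0.26, limma adjusted p = 0.00312) and fell by 1.72 with melatonin (SE 0.26, adjusted p = 0.000469) on the log2 scale. Lsat_1_v5_gn_8_127440 was lower likewise, from 254, 288 and 303 to 74.8, 73.6 and 136 FPKM under Cd and from 271, 289 and 216 to 81.4, 128 and 109 FPKM with melatonin. Both kept their calls on the scale of equal summed FPKM.

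Lsat_1_v5_gn_2_71401, also lower on day 5 in both series, was at 267, 289 and 278 FPKM in LCd0, 220, 204 and 210 FPKM in LCd1 and 148, 148 and 220 FPKM in LCd5, a fall not called in either series on the scale of equal summed FPKM (limma adjusted p = 0.141 and 0.244). Lsat_1_v5_gn_2_56801 was at 143, 136 and 142 FPKM in LCd0, 191, 243 and 167 FPKM in LCd1 and 107, 77.6 and 95.3 FPKM in LCd5, highest in the middle, and the same order held with melatonin at group means of 139, 163 and 82.4 FPKM. Its fall from day 0 to day 5, called in both series as deposited, was not called in either on the scale of equal summed FPKM (limma adjusted p = 0.432 and 0.144). Novelgene2776 and Lsat_1_v5_gn_4_143260 were called in no comparison on the deposited scale. The former was between 169 and 360 FPKM over the 18 leaf libraries, with a median of 238 FPKM, and its change from LCd0 to LCd5 was called on the scale of equal summed FPKM (log2 change 0.59, limma adjusted p = 0.0410). The latter was between 107 and 186 FPKM and had the lowest coefficient of variation of all members, 13.9%. Lsat_1_v5_gn_4_96641 was called in none either and scattered widely between replicates, at 67.6, 522 and 470 FPKM in LCdM1 and at 207, 408 and 135 FPKM in LCdM0.

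In total, 78 members (52%) passed the test in at least 1 of the 9 comparisons of days or of melatonin, against 32.4% of all leaf genes, and 72 passed in none. From day 0 to day 5, 69 of the 150 members were lower in at least 1 of the series on FPKM as deposited, against 17.8% of all genes. With base quality as a covariate no member was called over that interval in either series, and scaling to equal summed FPKM left fewer lower calls. None of the 69 was among the 12 members with no root value at all. All 12 had a single isoform and 5 were new genes. For 6 of the 12 the level was also listed at 0 in some leaf libraries, which without counts can be a failed estimate. Novelgene0696 was listed at 0 in 12 of 18 leaf libraries and at 63.5 to 110 FPKM in the other 6. Lsat_1_v5_gn_0_5240 was listed at 0 in 5 libraries, Lsat_1_v5_gn_8_133980 and Novelgene1197 in 4, Lsat_1_v5_gn_3_104200 in 3 and Lsat_1_v5_gn_3_67840 in 2, and none of these 6 was called in any comparison. For the other 144 members the lowest leaf library lay above the highest root library.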

How the data were processed

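The authors deposited FPKM values per isoform for 36 libraries, and no counts, so that depth behind a value and counting error are unknown and the spread between libraries stands for the precision. Per the study's methods, reads were aligned to a long-read reference transcriptome, and the submitters' processing notes name Bowtie2 2.0.6 and TopHat2 2.0.12. Which program made the isoform FPKM is not stated in those sources. Isoforms were summed per gene with Python 3.11.15, pandas 2.3.3 and numpy 2.4.6. The 18 leaf libraries were fitted together in limma 3.58.1 under R 4.3.3 (with data.table, version 1.17.8; lmFit, contrasts.fit, eBayes with trend) on log2(FPKM + 1), which understates changes of low genes. A gene was kept when 3 or more leaf libraries reached 1 FPKM, which all 150 members met, and p-values were Benjamini-Hochberg adjusted over all 16800. They measure the spread between libraries that the labels call biological repeats. SE is the standard error of a log2 change in this fit and SD that over 3 libraries. The fit was tested on simulated data.

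Members and lists were chosen with earlier results of these data known. Named were the 10 members of highest leaf level, those next to the limits, the 5 largest rises and falls per comparison among called members whose groups did not overlap, and up to 4 members per list. Terms came from the parts of the study's enrichment tables that were held, for 2938 genes. Alternatives were a pseudocount of 0.1, no filter, 2 scalings of libraries, each library left out, a block for replicate number, base quality as a covariate and a fit of just the compared groups. The scaling to equal summed FPKM and the background of genes of at least the members' level were added after seeing the data. Sequences were not used here.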

Additional observations from a re-analysis of the deposited data

Results flagged for a closer look

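A pair of members moved in opposite directions with and without melatonin in every library. The pair was picked out from the 150, and the share of all genes with such a pattern is not given here. Groups that lay apart within 1 series were common. From day 1 to day 5, 14% of all genes lay wholly above under Cd and 17.4% wholly below with melatonin. Lsat_1_v5_gn_1_38720, with photosynthesis and thylakoid terms, was higher in each LCd5 library than in each LCd1 library and lower in each LCdM5 library than in each LCdM1 library. The difference between the changes was -0.82 on the log2 scale and did not pass the limma test (adjusted p = 0.590). Lsat_1_v5_gn_4_2201, without a term, was at 17.0, 12 and 15.4 FPKM in LCd0 and at 19.0, 17.5 and 22.6 FPKM in LCd5, but at 33.0, 28.7 and 26.7 FPKM in LCdM0 and at 14.2, 18.8 and 16.2 FPKM in LCdM5. The difference between the changes was -1.21 and did not pass either (limma adjusted p = 0.537).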

How the results depend on the processing

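Counts of members called are given here for both directions together. A pseudocount of 0.1 left 0 for melatonin on day 5, as did both scalings, the quality covariate and the fit of the compared groups alone. Scaling by median ratios left 5 for day 0 to 1 under Cd, and scaling to equal summed FPKM left 23 for day 1 to 5 with melatonin. The quality covariate left 0 for day 0 to 5 in both series and 0 for day 1 to 5 under Cd. The compared groups alone gave 1 (day 0 to 1), 3 (day 1 to 5) and 25 (day 0 to 5) under Cd and 2 (day 1 to 5) with melatonin, with fewer residual degrees of freedom. Leaving out 1 library gave 1 to 5, 6 to 29 and 29 to 61 for these intervals under Cd, 14 to 50 (day 1 to 5) and 53 to 60 (day 0 to 5) with melatonin, and 0 to 3 for melatonin on day 5. None of the named calls changed sign under any of these, whereas 3 of the 52 members called for day 0 to 5 under Cd did so with the quality covariate. Of the values of the named calls under all alternatives, 353 kept their side of the threshold and 141 did not.

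Same-numbered libraries did not deviate together (r of -0.326 to 0.323 over 45 pairs, 12 of them over 0.1), so the numbers were not taken as a pairing. With the replicate number as a block, 9, 15 and 51 members were called for day 0 to 1, 1 to 5 and 0 to 5 under Cd, 0, 40 and 66 with melatonin, and 0, 0 and 1 for melatonin on days 0, 1 and 5. Without counts, the depth behind low values is not known.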
